A study of Mus musculus with 2 samples.

Results

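Tnf, Il6, Il10, Il12b, Nfkbia, Nfkbiz, Tnfaip3 and Ptgs2 are 8 inflammatory genes that were followed across the leukocytes of fatty, inflamed mouse livers. They were taken by symbol from the 32285 genes of the count matrices, and each symbol matched 1 row. The Trem2-/- group consisted of male C57BL/6J mice that were lethally irradiated, received marrow of Trem2-/- donors, recovered for 6 weeks and ate a methionine- and choline-deficient diet for 4 weeks. The Trem2+/+ group was handled identically with marrow of Trem2+/+ littermates, so both groups share irradiation, transplantation and diet, and cells of the recipient that survived irradiation keep their own Trem2. Viable CD45+ liver cells of 4 mice were pooled in each group and captured as 1 droplet library, which reads transcripts from their 5′ ends and tags every captured molecule with a unique identifier (UMI). Because there is 1 library per group, differences between the groups could not be checked against replicates, and every interval covers counting error alone. The mice of a pool cannot be separated, and fewer expressing cells and less RNA per cell are told apart only where shares of cells are given.

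NF-kB is a family of transcription factors held in the cytoplasm by inhibitor proteins until receptors for microbial products, TNF or IL-1 trigger the inhibitors' destruction. Freed NF-kB switches on cytokine genes, among them Tnf, Il6 and Il12b, and also Ptgs2, the inducible cyclooxygenase that starts prostaglandin synthesis. It also switches on its own brakes: Nfkbia encodes the inhibitor IkB-alpha that returns NF-kB to the cytoplasm, Tnfaip3 encodes the ubiquitin-editing enzyme A20, and Nfkbiz encodes a nuclear IkB protein that helps a second wave of genes, Il6 included. IL-10 is the counter-regulatory cytokine of macrophages and T cells, and in liver the resident Kupffer cells are a known source of both TNF and IL-10.

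RefSeq sequence upstream of the start site was at hand for 6 of the 8 genes (GRCm38.p6). A 10-base NF-kB consensus, searched on both strands, lay within the 250 bases upstream of 3 of them, and 7.25% of 32851 mouse upstream windows of that length hold a match. The 3 windows with a match are shown first, with each match in capitals, and the window of Il12b, the gene with the most localised expression, follows without a match. All read 5′ to 3′ on the gene's strand.
Il6 (chr5:30012864-30013113, plus strand): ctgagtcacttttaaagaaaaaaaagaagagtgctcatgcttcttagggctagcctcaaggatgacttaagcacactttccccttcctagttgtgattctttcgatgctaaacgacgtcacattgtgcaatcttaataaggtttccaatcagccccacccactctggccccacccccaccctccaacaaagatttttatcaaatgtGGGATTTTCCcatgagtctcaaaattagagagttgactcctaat
Nfkbia (chr12:55492648-55492897, minus strand): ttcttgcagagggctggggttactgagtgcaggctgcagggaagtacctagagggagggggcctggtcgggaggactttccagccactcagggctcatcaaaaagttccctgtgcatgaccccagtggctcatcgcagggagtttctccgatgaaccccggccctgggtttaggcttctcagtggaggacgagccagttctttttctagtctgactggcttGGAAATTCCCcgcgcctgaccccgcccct
Tnfaip3 (chr10:19015411-19015660, minus strand): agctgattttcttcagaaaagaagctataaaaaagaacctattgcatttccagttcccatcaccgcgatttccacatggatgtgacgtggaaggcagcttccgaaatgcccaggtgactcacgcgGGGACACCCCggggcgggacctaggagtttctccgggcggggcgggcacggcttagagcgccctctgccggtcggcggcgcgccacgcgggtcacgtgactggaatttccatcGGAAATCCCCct
Il12b (chr11:44399813-44400062, plus strand): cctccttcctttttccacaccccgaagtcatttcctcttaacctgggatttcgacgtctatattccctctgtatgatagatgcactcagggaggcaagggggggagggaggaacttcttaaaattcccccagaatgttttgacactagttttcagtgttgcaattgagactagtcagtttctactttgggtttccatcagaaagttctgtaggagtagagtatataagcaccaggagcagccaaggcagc
The AP-1 motif TGANTCA, searched on both strands, was found in the windows of Il6 and Tnfaip3 and in 6.75% of all windows. The windows of Tnf and Ptgs2 and the other window of Tnfaip3 held neither motif, which says nothing of sites elsewhere. These letters describe the windows and do not locate factor binding.

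The Trem2-/- library held 25288032 UMIs in 6362 barcodes, of which 5974 were kept, and the Trem2+/+ library 27238586 UMIs in 7012 barcodes, of which 6596 were kept. Median depth was 2931.5 and 2492 UMIs per kept cell. Trem2 itself summed to 154 UMIs (6.19 CPM, the gene's UMIs scaled to a fixed library total) in the Trem2-/- library, against 5478 (204 CPM) in the Trem2+/+ library. The libraries shared 56 barcode sequences, 53 of them kept in both. The doublet caller marked 6 of 13374 barcodes, too few to have worked, so doublets remain among the cells. Cells were clustered without the 8 genes and named after the markers they resemble, and 15 classes had at least 100 cells in each library. Some classes held different shares of the libraries: macrophage-like cells were 3.67% of Trem2-/- and 11.8% of Trem2+/+ cells, and CD8 T cell-like cells 12.3% and 5.75%. The cells were sorted for CD45, but its mRNA (Ptprc) was detected in few endothelial-like cells, 12.2% of Trem2-/- and 15.4% of Trem2+/+ ones, against 96.3% and 91.8% of monocyte-like cells. A ratio is called below when it is past 1.5-fold and its 95% interval excludes no change, and it is given only with at least 20 UMIs over both libraries. As background, the share of all genes at 20 CPM or more that were called in either direction is printed for each class. Orders of levels are given among named classes: unnamed cluster 20, a low-depth group led by the nuclear RNAs Gm26917 and Neat1, held 110.1 CPM of Il6 in the Trem2-/- library, against 41.0 CPM in the Trem2+/+ library, and 900.5 and 884 CPM of Tnf, levels near those of monocyte-like cells.

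**Figure D1:**
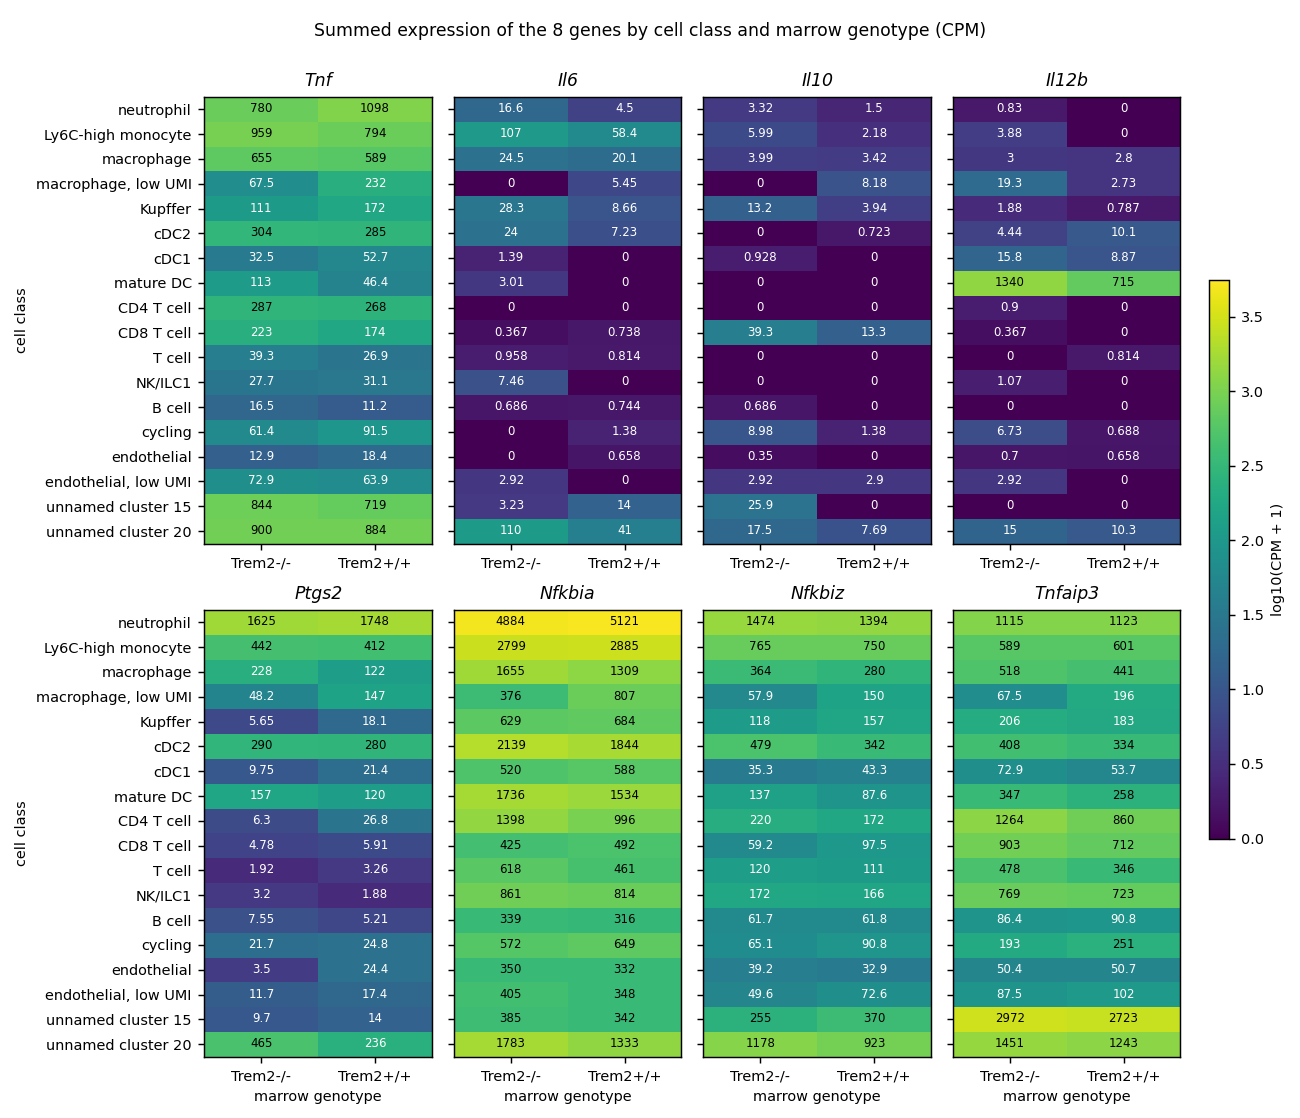
Summed expression of each gene in 18 cell classes, in CPM (printed in each cell; colour is log10 of CPM + 1), with the Trem2-/- library in the left column and the Trem2+/+ library in the right column of each panel. Il12b is concentrated in mature dendritic-like cells (1339.8 and 715 CPM), Il6 in monocyte-like cells (107 and 58.4 CPM) and Ptgs2 in neutrophil-like cells (1625 and 1748 CPM).

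Summed over all kept cells, Il10 and Il12b were called higher in the Trem2-/- library and the other 6 genes were not called (6.48% of all genes called). The mean of Il10 lay under 20 CPM, so that share of all genes does not include it. Il10 had 207 UMIs in the Trem2-/- library, against 73 in the Trem2+/+ library (log2 ratio 1.61, 95% interval 1.22 to 2.02). Il12b had 972 and 474 UMIs (1.15, 0.99 to 1.31). Il6 had 499 and 374 UMIs (0.53, 0.33 to 0.72), short of 1.5-fold. Tnf had 7445 and 9770 UMIs (-0.28, -0.33 to -0.24). Nfkbia, Nfkbiz, Tnfaip3 and Ptgs2 lay between -0.14 and 0.25. These sums mix expression with class sizes: with every class given its mean share in both libraries, the ratio of Tnf was -0.05, that of Il6 0.95 and that of Il10 1.07, while Nfkbia, Nfkbiz and Ptgs2 stood at 0.04, 0.08 and 0.01 instead of -0.10, -0.07 and -0.14.

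Il12b (ENSMUSG00000004296, chr11:44400063-44414033, plus strand, 8 exons, mm10) encodes the p40 chain shared by IL-12 and IL-23. Its transcripts came almost entirely from mature dendritic-like cells, which express Ccr7 (97.7% and 96.5% of cells in the Trem2-/- and Trem2+/+ libraries) and Fscn1 (83.7% and 81.2%) and which carry antigen to T cells. There, 86 Trem2-/- cells held 889 Il12b UMIs and 85 Trem2+/+ cells 416, or 1339.8 CPM (1253 to 1431) and 715 CPM (648 to 787). That is 91.5% of the Il12b UMIs of the Trem2-/- library, against 87.8% of those of the Trem2+/+ library. No other class reached 20 CPM: the next highest with at least 100 cells in each library were type 1 dendritic-like cells with 15.8 and 8.87 CPM and type 2 dendritic-like cells with 4.44 and 10.1 CPM. B cell-like cells, which should lack the transcript, held it in 0 of 653 and 0 of 733 cells (exact upper bounds 0.563% and 0.502%).

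The log2 ratio of Il12b in mature dendritic-like cells was 0.91 (0.74 to 1.08) and was called, against 7.55% of all genes in this class. The class was admitted with a limit of 80 cells per library that was set after the data were seen. The share of its cells with an Il12b UMI differed by less than counting error, at 39.5% (34 of 86, exact interval 29.2 to 50.7) in the Trem2-/- library, against 37.6% (32 of 85, 27.4 to 48.8) in the Trem2+/+ library. The number of UMIs per positive cell was 26.1 in the Trem2-/- library, against 13 in the Trem2+/+ library. In the Trem2-/- library 6 cells held 50 or more Il12b UMIs and the highest held 121, against 2 cells and 68 in the Trem2+/+ library. Just 5 cells supplied 60.0% of the Trem2-/- UMIs and 52.2% of the Trem2+/+ UMIs, and without the 5 highest cells of each library the log2 ratio was 0.66 (0.40 to 0.91). Clustering each library alone turned the ratio to -0.52: the class named mature dendritic then held 242 Trem2-/- cells instead of 86, and 86 Trem2+/+ cells. At equal depth, thinned to 1000 UMIs per cell, 25 of 83 Trem2-/- and 16 of 80 Trem2+/+ cells showed the transcript.

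The partner chains of p40 were nearly absent from these cells. Il12a, the other chain of IL-12, had 0 and 1 UMIs, and Il23a, the other chain of IL-23, had 0 in both libraries. Ebi3, which pairs with other chains of the IL-12 family, had 68 UMIs (102 CPM) in Trem2-/- and 23 (39.5 CPM) in Trem2+/+ mature dendritic-like cells, a called log2 ratio of 1.38 (0.67 to 2.13). Stat4, which transmits the IL-12 signal, had 60 and 118 UMIs (-1.17). Il23a appeared instead in monocyte-like cells, with 98 UMIs in Trem2-/- and 25 in Trem2+/+ cells (2.15, 1.51 to 2.85), where Il12b had 11 and 0 UMIs.

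Tnf and Nfkbiz were also called higher in Trem2-/- mature dendritic-like cells. Tnf had 75 UMIs (113 CPM) in the Trem2-/- library, against 27 (46.4 CPM) in the Trem2+/+ library (1.28, 0.63 to 1.98), and 25 of 86 and 17 of 85 cells held one. Without the 5 highest cells of each library the Tnf ratio was 0.91 with an interval that includes 0 (-0.05 to 1.94). Over the alternatives the Tnf ratio ran from 0.15 to 2.28, and at Leiden resolution 0.5 (0.15) and clustered without the listed genes (0.17) it was not called. Nfkbiz had 91 and 51 UMIs (0.65, 0.14 to 1.17), with 0.34 to 2.05 over the alternatives, of which 4 left it short of 1.5-fold. Nfkbia, Tnfaip3 and Ptgs2 had log2 ratios of 0.18, 0.43 and 0.38 and were not called. The median over the 6 measured members was 0.54, and that over all genes of the class was -0.08. Of the 5 NF-kB subunit genes none was called and none had a ratio above 0 (median -0.17). Heat shock genes that mark dissociation stress moved as well: Hspa1a had 219 CPM in Trem2-/- and 92.8 CPM in Trem2+/+ cells, and 5 of 17 measured stress genes were called higher and 1 lower. Such a rise was not particular to this class. Over all kept cells Hspa1b had 58.9 and 26.1 CPM (1.18), with 2 of 19 measured stress genes called higher and 1 lower. Hspa1b was also called higher in B cell-like cells (1.30). The part of the stress genes in the result was not tested.

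**Figure D2:**
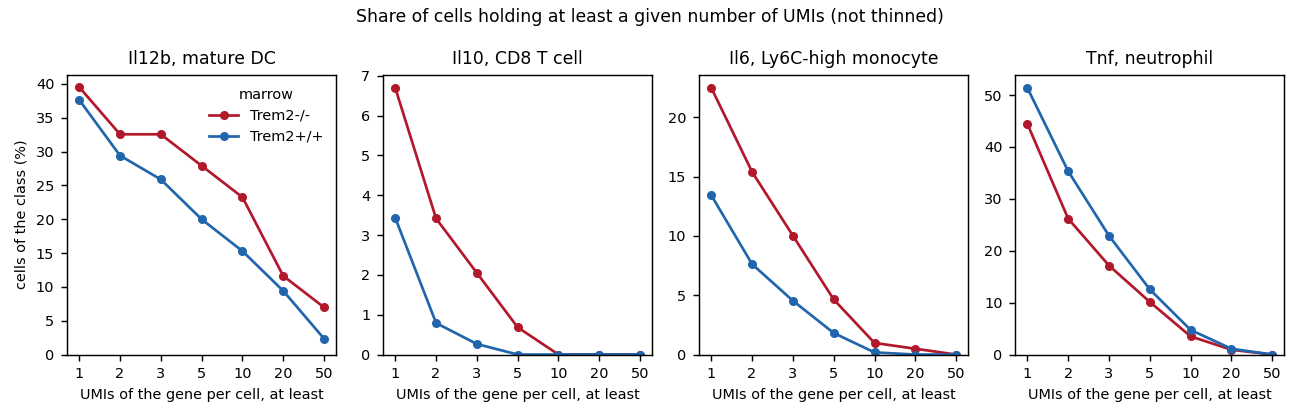
Share of cells (vertical axis, percent of the class) holding at least the number of UMIs on the horizontal axis, for Il12b in mature dendritic-like, Il10 in CD8 T cell-like, Il6 in monocyte-like and Tnf in neutrophil-like cells, red for Trem2-/- and blue for Trem2+/+ marrow. The Il12b curves start together at 39.5% and 37.6% and part at higher counts, while those of Il6 start apart at 22.5% and 13.4%.

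Il6 (ENSMUSG00000025746, chr5:30013114-30019981, plus strand, 5 exons) encodes a cytokine of the acute-phase response. Among named classes its highest level was in Ly6C-high monocyte-like cells, a type that arrives from blood and is led here by Chil3, F13a1 and Vcan, and these held 60.9% of the Il6 UMIs of the Trem2-/- library, against 50.3% of those of the Trem2+/+ library. In these cells Il6 had 304 UMIs in 409 Trem2-/- cells (107 CPM, 95.4 to 120) and 188 UMIs in 551 Trem2+/+ cells (58.4 CPM, 50.4 to 67.4). The log2 ratio was 0.87 (0.61 to 1.14) and was called, against 2.37% of all genes. More cells were positive, 22.5% (18.5 to 26.9) in the Trem2-/- library, against 13.4% (10.7 to 16.6) in the Trem2+/+ library, at median depths of 6751 and 5804 UMIs per cell. Thinned to 1000 UMIs per cell the shares were 8.87% of 406 and 4.55% of 527 cells. B cell-like cells held an Il6 UMI in 0.153% of Trem2-/- and 0.136% of Trem2+/+ cells, at 2029 and 1764 UMIs per cell. No alternative turned the monocyte ratio, which ranged from 0.69 to 1.28, and without the 5 highest cells of each library it was 0.85.

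Il6 was called higher in 5 of the 6 classes with enough UMIs. Its mean in Kupffer-like, type 2 dendritic-like and neutrophil-like cells lay under 20 CPM, so the printed shares of all genes there do not include it. Kupffer-like cells expressed Clec4f (90.5% of Trem2-/- and 85.0% of Trem2+/+ cells) and Vsig4 (88.4% and 80.7%). Of their other markers, Timd4 was seen in 9.91% and 17.7% of cells and Marco in 4.31% and 14.6%. Whether these cells came from the recipient or the marrow was not tested. Il6 had 30 UMIs in 13 of 232 Trem2-/- cells and 11 UMIs in 8 of 254 Trem2+/+ cells (1.71, 0.67 to 2.85, with 5.68% of all genes called). Without the 5 highest cells of each library the interval included 0 (1.88, -0.12 to 4.40). In type 2 dendritic-like cells it had 27 and 10 UMIs (1.73, 0.64 to 2.94; 4.98% called), but 5 cells held the 27 and 1 of them 19. In neutrophil-like cells it had 20 and 6 UMIs in 5 cells each (1.88; 6.08% called), and the sign turned under 2 alternatives. In unnamed cluster 20 it had 44 UMIs in 22 cells and 16 UMIs in 9 cells (1.42, 0.57 to 2.35; 7.84% called). Macrophage-like cells were the exception, with 49 UMIs (24.5 CPM) in Trem2-/- and 129 (20.1 CPM) in Trem2+/+ cells (0.29), and -0.33 without the 5 highest cells of each library. Over the alternatives that ratio ran from -0.33 to 2.90, so its size was not stable. After monocytes, the order of levels in the Trem2-/- library ran from Kupffer-like to macrophage-like and type 2 dendritic-like cells with overlapping intervals, and in the Trem2+/+ library macrophage-like cells came next, apart from Kupffer-like cells.

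Of 8 other genes of IL-6 signalling measured in monocyte-like cells 1 was called higher and none lower (median 0.15, all genes 0.01). That gene was Lif, a relative of Il6, with 75 and 46 UMIs (0.89). The receptor chain Il6ra had 150 CPM in the Trem2-/- library, against 137 CPM in the Trem2+/+ library (0.14, -0.06 to 0.33). The heat shock genes Hspa1a (115 and 61.5 CPM) and Hspa1b (56.4 and 18.3 CPM) were called higher in the same cells, as 3 of 19 measured stress genes were, and their part in the Il6 result was not tested.

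Tnf (ENSMUSG00000024401, chr17:35199381-35202007, minus strand, 4 exons) encodes the cytokine that drives much of hepatic inflammation. It was spread over many myeloid and T cell classes, and the class that led differed between the libraries. In the Trem2-/- library monocyte-like cells were highest with 2722 UMIs (959 CPM, 923 to 996), followed by neutrophil-like cells with 940 UMIs (780.1 CPM, 731 to 832) and macrophage-like cells with 1312 UMIs (655 CPM, 620.0 to 691). In the Trem2+/+ library neutrophil-like cells led with 1465 UMIs (1098 CPM, 1042 to 1156), followed by monocyte-like cells with 2556 UMIs (794 CPM, 764 to 826) and macrophage-like cells with 3784 UMIs (589 CPM, 570.0 to 608). None of these neighbouring intervals overlapped. Type 2 dendritic-like cells (304 and 285 CPM) and CD4 T cell-like cells (287 and 268 CPM) came next and overlapped in both libraries.

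Between the libraries, 13 of 15 classes showed no called change of Tnf. The log2 ratio was 0.27 (0.19 to 0.35) in monocyte-like cells, 0.15 (0.06 to 0.25) in macrophage-like cells and -0.49 (-0.61 to -0.37) in neutrophil-like cells. Over the alternatives the macrophage value ran from -0.03, without the 5 highest cells of each library, to 1.37. The neutrophil value kept its sign under every alternative run, between -0.63 and -0.44, whereas the monocyte value was -0.16 with all barcodes and -1.25 when each library was clustered alone. Neutrophil-like cells comprised cluster 9, led by Retnlg and S100a9, and cluster 10, led by Il1f9 and Acod1. In cluster 9 Tnf had 372 CPM in Trem2-/- and 606 CPM in Trem2+/+ cells (-0.70, called, against 6.67% of all genes), and in cluster 10 it had 1486 and 1827 CPM (-0.30). The share of neutrophil-like cells with a Tnf UMI was 44.5% (40.2 to 48.8) in the Trem2-/- library, against 51.4% (47.7 to 55.1) in the Trem2+/+ library. Thinned to 1000 UMIs it was 31.3% of 514 and 43.3% of 637 cells. In B cell-like cells it was 1.99% and 1.5%.

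Tnf was called lower in Kupffer-like and type 1 dendritic-like cells. Kupffer-like cells had 118 UMIs (111 CPM) in the Trem2-/- library, against 219 (172 CPM) in the Trem2+/+ library (-0.63, -0.97 to -0.30). Under 4 alternatives that redrew the Kupffer-like class the sign turned, up to 0.72, so the direction was not stable. Type 1 dendritic-like cells had 70 and 101 UMIs (-0.70, -1.16 to -0.24; 2.84% of all genes called), with markers of neutrophils summing to 123.5 CPM in Trem2-/- and 796.8 CPM in Trem2+/+ cells of that class. All 8 of those markers were at or below the Trem2+/+ level, and their part in the result was not tested. Unnamed cluster 15, a low-depth group with Ptpn22 and Fasl among its leading genes, had 844 and 719 CPM of Tnf (0.23). In CD8 T cell-like cells Tnf had 223 and 174 CPM (0.36), and in their cluster 5 it had 87 and 23 UMIs (0.74, 0.06 to 1.47, called).

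Of the receptors of TNF, Tnfrsf1a in neutrophil-like cells had 427 CPM in the Trem2-/- library, against 388 CPM in the Trem2+/+ library (0.14), and Tnfrsf1b 398 and 393 CPM (0.02). Of 10 measured genes of TNF processing and signalling in these cells none was called. In monocyte-like cells none of 13 was called (median 0.01), among them Adam17, the protease that sheds TNF, with 153 and 176 CPM (-0.20). In CD8 T cell-like cells Tnfrsf1b was called higher, with 211 and 140 CPM (0.59, 0.35 to 0.83).

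Il10 (ENSMUSG00000016529, chr1:131019845-131024974, plus strand, 5 exons) was sparse, and its largest source in the Trem2-/- library was a class of T cells. CD8 T cell-like cells held 51.7% of the library's Il10 UMIs there and 24.7% in the Trem2+/+ library, where macrophage-like cells held 30.1%. In these T cells Il10 had 107 UMIs in 49 of 732 Trem2-/- cells (39.3 CPM, 32.2 to 47.5) and 18 UMIs in 13 of 379 Trem2+/+ cells (13.3 CPM, 7.9 to 21). The log2 ratio was 1.56 (0.84 to 2.37) and was called, against 6.18% of all genes; TMM scaling would lower every ratio in this class by 0.11. Without the highest doublet scores the ratio was 0.58 (-0.56 to 1.87) and not called, and with each library clustered alone it was 2.49. Leaving out those scores redrew the class to 458 Trem2-/- and 260 Trem2+/+ cells. Summed over all T cell classes, Il10 then had 128 and 26 UMIs (1.56). In the class as first drawn the share of positive cells was 6.69% (4.99 to 8.75) and 3.43% (1.84 to 5.79) at median depths of 3389.5 and 3218 UMIs per cell. Other T cell-like cells gave 0 positive cells of 264 and 0 of 335, CD4 T cell-like cells 0 of 277 and 0 of 149, and endothelial-like cells 1 of 658 and 0 of 384.

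Nearly all of these UMIs lay in 1 of the 2 clusters of the class. Cluster 5, led by Pdcd1, Gzmk, Ccl5 and Lag3, held 106 of the 107 Trem2-/- UMIs and all 18 Trem2+/+ UMIs, and its own log2 ratio was 1.38 (0.65 to 2.18; 8.2% of all genes called). It held 389 of 732 Trem2-/- and 181 of 379 Trem2+/+ cells of the class, with the rest in cluster 16, led by Gzmb and Klra7. Every Il10-positive cell of the class carried a Cd3 UMI, 49 of 49 and 13 of 13. Pdcd1, the PD-1 receptor, was seen in 42 of 49 and 10 of 13 of them, and Gzmk in 43 and 13. None carried Foxp3, the regulatory T cell factor. Cd4 was seen in 30 of the 49 Trem2-/- cells and 5 of the 13 Trem2+/+ cells, against Cd8a or Cd8b1 in 17 and 6.

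The cells of cluster 5 were therefore split by their co-receptor UMIs, a division made after the data were seen. Cells with Cd4 and no Cd8 UMI were 76 of 389 (19.5%) in the Trem2-/- library, against 21 of 181 (11.6%) in the Trem2+/+ library. Of these, 27 of 76 (35.5%, 24.9 to 47.3) and 5 of 21 (23.8%, 8.22 to 47.2) held Il10, with 70 and 9 UMIs (289 and 141 CPM). Cells with Cd8 and no Cd4 UMI held Il10 in 13 of 287 (4.53%, 2.43 to 7.62) and 6 of 143 (4.2%, 1.56 to 8.91), with 17 and 7 UMIs (15.3 and 13.1 CPM). In both subsets the intervals of the share of Il10-positive cells overlapped between the libraries. Most of the surplus of Trem2-/- UMIs sat in the Cd4 subset, which also held more Trem2-/- than Trem2+/+ cells, 76 against 21. The class name CD8 T cell-like thus did not describe the cells that carried most Il10 UMIs in the Trem2-/- library. Trem2+/+ UMIs were split more evenly, with 9 in 5 cells of the Cd4 subset and 7 in 6 cells of the Cd8 subset. Summed over all T cell classes, Il10 had 126 UMIs (24.1 CPM) in the Trem2-/- library, against 26 (8.20 CPM) in the Trem2+/+ library, and the log2 ratio stayed between 1.40 and 1.60 under each of the 7 other ways of filtering and clustering the cells that were run.

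**Figure D3:**
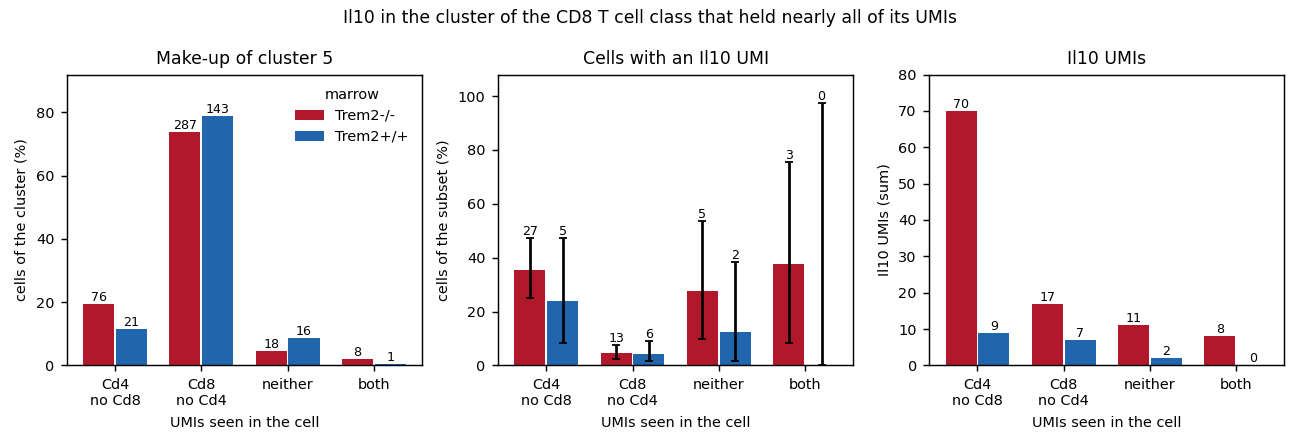
Cluster 5 of the CD8 T cell-like class divided by the Cd4 and Cd8 UMIs of each cell, with Trem2-/- bars left of Trem2+/+ bars: the subsets' shares of the cluster (cell numbers above the bars), the share of each subset with an Il10 UMI with exact 95% binomial intervals (positive cells above), and the summed Il10 UMIs. The Cd4 subset held 70 of the 106 Trem2-/- UMIs and 9 of the 18 Trem2+/+ UMIs.

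Regulatory T cell-like cells carried Il10 at 53.3 CPM in the Trem2-/- library, against 118 CPM in the Trem2+/+ library, but were few: 9 of 95 Trem2-/- cells held 19 UMIs and 4 of 25 Trem2+/+ cells held 8, too few cells for a ratio. In Kupffer-like cells Il10 had 14 UMIs in 8 of 232 Trem2-/- cells and 5 UMIs in 3 of 254 Trem2+/+ cells, under the UMI limit. Monocyte-like cells had 17 and 7 UMIs (1.46, 0.12 to 2.97, called), with 15 of the 17 in 5 cells. At 5.99 and 2.18 CPM, Il10 is not among the genes behind the share of 2.37% called in that class. Macrophage-like cells had 8 UMIs (3.99 CPM) in Trem2-/- and 22 (3.42 CPM) in Trem2+/+ cells (0.22). Of 9 measured genes of IL-10 induction and receptor signalling in CD8 T cell-like cells, 1 was called higher and all 9 had ratios above 0 (median 0.29, all genes 0.09). The called gene was Nfil3, a factor that promotes Il10 expression, with 207 and 64 UMIs (0.69). Maf had 177 and 146 CPM (0.28) and Prdm1 87.4 and 60.5 CPM (0.53), neither called. Stress genes moved in the same class, 5 of 17 higher and none lower (median 0.37), and their part was not tested.

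Ptgs2 (ENSMUSG00000032487, chr1:150100031-150108227, plus strand, 10 exons) was above all a neutrophil gene. Neutrophil-like cells had 1958 UMIs (1625 CPM, 1554 to 1699) in the Trem2-/- library, against 2333 (1748 CPM, 1678 to 1821) in the Trem2+/+ library, 44.3% and 44.5% of each library's Ptgs2 UMIs. The log2 ratio of -0.11 (-0.19 to -0.02) was not called and ranged from -0.14 to -0.06 over the alternatives. Among named classes the order then ran in both libraries through monocyte-like (442 and 412 CPM) and type 2 dendritic-like cells (290.2 and 280 CPM). Macrophage-like cells came next in the Trem2-/- library, whereas in the Trem2+/+ library low-depth macrophage-like, macrophage-like and mature dendritic-like cells overlapped.

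Ptgs2 was called higher in macrophage-like cells of the Trem2-/- library. They had 456 UMIs in 219 Trem2-/- cells (228 CPM, 207 to 250) and 782 UMIs in 779 Trem2+/+ cells (122 CPM, 113 to 130), a called log2 ratio of 0.90 (0.73 to 1.07) against 4.15% of all genes. The share of positive cells was 31.1% (25.0 to 37.6) and 21.2% (18.4 to 24.2). Within cluster 22, led by Gpnmb, Gdf15 and Mmp12, the levels were 335 and 154 CPM (1.12, called; 5.81% of all genes), and within cluster 23, led by Ms4a7 and C1qa, 27 and 33 UMIs (0.83, 0.04 to 1.60, called; 6.16%). Most cells of both libraries were in cluster 22, 144 of 219 and 572 of 779. The size of the difference depended on where the class was drawn: it was 0.26 with a stricter cell filter, 0.32 at Leiden resolution 2, 0.36 without the highest doublet scores and 2.90 with each library clustered alone. Without the 5 highest cells of each library it was 0.54. The neutrophil markers summed to 306.0 and 308.0 CPM in this class. Of 19 measured stress genes 18 had ratios above 0 there (median 0.20) and 2 were called higher, Hspa1b (63.4 and 16.8 CPM, 1.92) and Hspa1a (128 and 50.4 CPM, 1.35), and their part in the result was not tested. Ptger4, a receptor for prostaglandin E, was called higher in the same cells (37.9 and 22.1 CPM, 0.78). In unnamed cluster 20 Ptgs2 had 186 and 92 UMIs (0.98, 0.61 to 1.36).

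Low-depth macrophage-like cells, described below, went the opposite way from macrophage-like cells: Ptgs2 was called lower there (48.25 and 147.16 CPM). Among the 15 larger classes, the opposite direction appeared at low levels in 4, and in each a few Trem2+/+ cells held most of the UMIs. In all 4 the mean of Ptgs2 lay under 20 CPM, so the printed shares of all genes do not include it. In endothelial-like cells Ptgs2 had 10 UMIs in 10 of 658 Trem2-/- cells and 37 UMIs in 8 of 384 Trem2+/+ cells, 26 of them in 1 cell (-2.80; 2.67% of all genes called). Without the 5 highest cells of each library the ratio was -0.19 (-2.55 to 2.50). The neutrophil markers summed to 39.2 CPM in Trem2-/- and 246.9 CPM in Trem2+/+ endothelial-like cells. In CD4 T cell-like cells Ptgs2 had 7 UMIs in 7 cells and 14 UMIs in 4 cells, 11 of them in 1 (-2.09; 6.77% called), beside neutrophil markers of 54.0 and 95.8 CPM. In Kupffer-like cells it had 6 and 23 UMIs, 13 of the Trem2+/+ UMIs in 1 cell (-1.68), with markers at 82.0 and 74.0 CPM. The Kupffer-like sign turned under 4 alternatives that redrew the class (0.16 to 0.76), and the endothelial-like one without the highest doublet scores (0.53), so neither direction was stable. In type 1 dendritic-like cells it had 21 and 41 UMIs, 20 and 39 of them in 5 cells (-1.13). The part of the neutrophil transcripts in these values was not tested. B cell-like cells, for comparison, held 7.55 and 5.21 CPM.

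**Figure D4:**
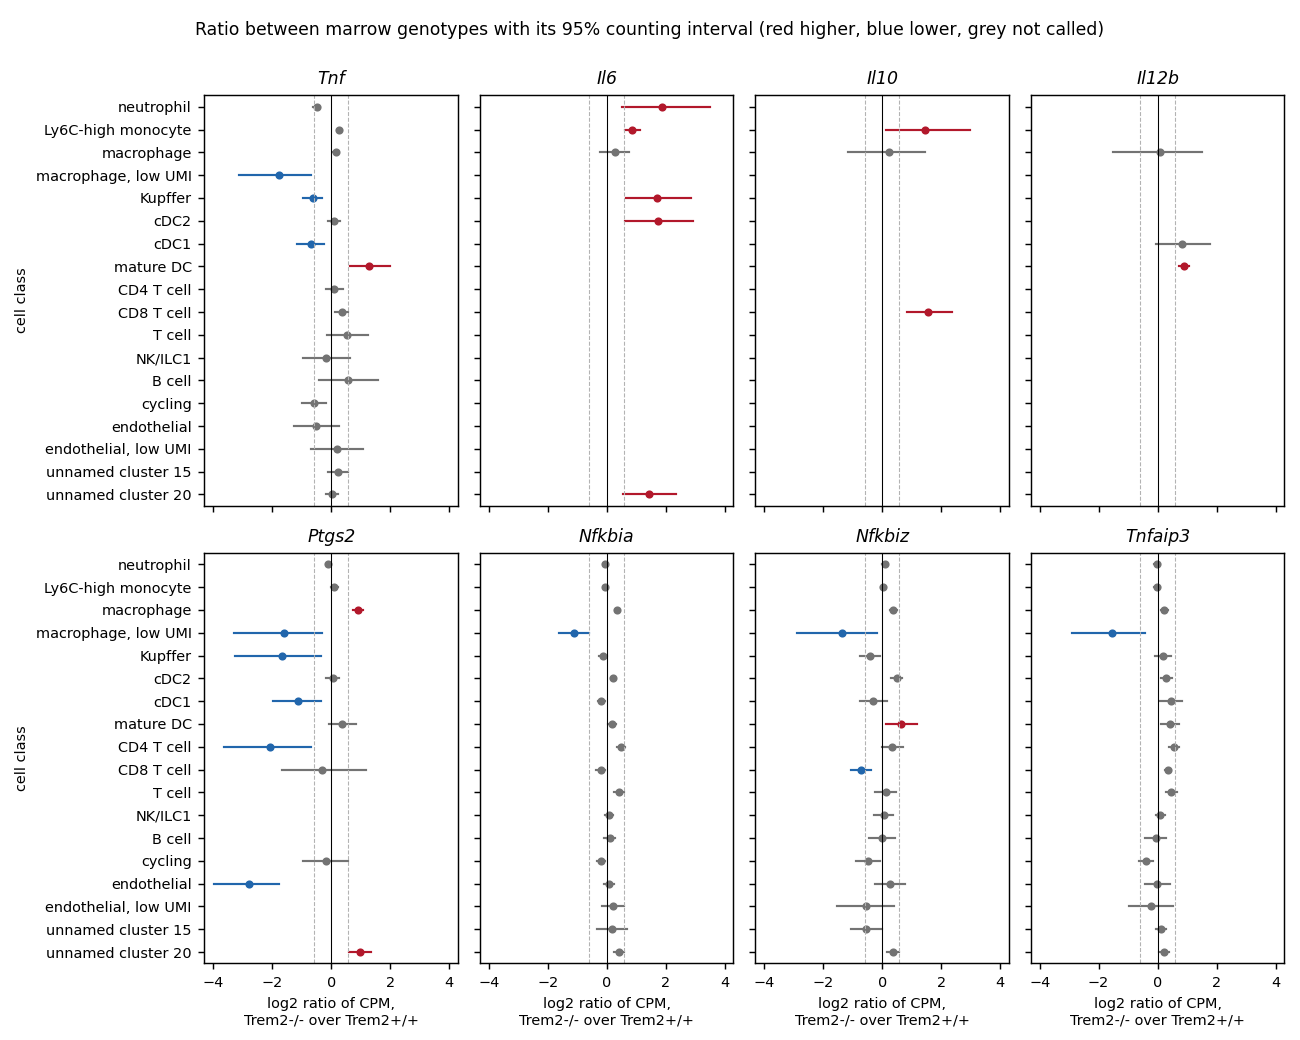
Log2 ratio of CPM, Trem2-/- over Trem2+/+, with its 95% counting interval, for each gene (panel) and cell class (row) with at least 20 UMIs over both libraries. Dashed lines mark 1.5-fold, red marks called higher, blue called lower and grey not called. The Nfkbia and Tnfaip3 values of the 15 larger classes are grey throughout, while Il6 is red in 5 of 6.

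Nfkbia (ENSMUSG00000021025, chr12:55489410-55492647, minus strand, 6 exons) was detected in most myeloid cells. Neutrophil-like cells led in both libraries with 4884 CPM (4760.0 to 5010.4) in the Trem2-/- library, against 5121 CPM (5001 to 5244) in the Trem2+/+ library, followed by monocyte-like (2799 and 2885 CPM) and type 2 dendritic-like cells (2139 and 1844 CPM), with no overlap between neighbours. In none of the 15 classes was it called, and the log2 ratios ran from -0.21 to 0.49. The highest was in CD4 T cell-like cells, with 1398 CPM in Trem2-/- and 996 CPM in Trem2+/+ cells (0.49, 0.34 to 0.63), followed by other T cell-like cells (618 and 461 CPM, 0.42) and unnamed cluster 20 (0.42). In CD4 T cell-like cells Cd4 itself was seen in 66.8% of Trem2-/- and 40.9% of Trem2+/+ cells (358 and 243 CPM), whereas Cd3e had 937 and 926 CPM. The part of this difference in the Nfkbia and Tnfaip3 ratios of that class was not tested. In macrophage-like cells the Nfkbia ratio was 0.34 (0.28 to 0.40), with 0.17 to 1.27 over the alternatives. In neutrophil-like and monocyte-like cells it was -0.07 and -0.04.

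Tnfaip3 (ENSMUSG00000019850, chr10:19000910-19015657, minus strand, 9 exons) had its highest named classes among T cells as much as among neutrophils. In the Trem2-/- library CD4 T cell-like cells led with 1264 CPM (1199 to 1332), ahead of neutrophil-like cells with 1115 CPM (1056 to 1176). In the Trem2+/+ library neutrophil-like cells led with 1123 CPM (1067 to 1182), ahead of CD4 T cell-like cells with 860.4 CPM (783 to 944). The log2 ratio in CD4 T cell-like cells was 0.55 (0.40 to 0.71), short of 1.5-fold, and that in other T cell-like cells 0.47 (0.28 to 0.66). In neutrophil-like cells it was -0.01 and in monocyte-like cells -0.03. None of the 15 larger classes was called, but within CD8 T cell-like cells cluster 16 was (989 and 659 CPM, 0.59; 5.76% of all genes called) while cluster 5 was at 830.2 and 771 CPM (0.11). The difference between the clusters was not tested. Unnamed cluster 15 had the highest level of all, 2972 and 2723 CPM.

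Nfkbiz (ENSMUSG00000035356, chr16:55811375-55838899, minus strand, 14 exons) followed, among named classes, the myeloid order of Nfkbia: 1474 and 1394 CPM in neutrophil-like, 765 and 750 CPM in monocyte-like and 479 and 342 CPM in type 2 dendritic-like cells. It was called in 1 of 15 classes. CD8 T cell-like cells had 161 UMIs (59.2 CPM) in the Trem2-/- library, against 132 (97.5 CPM) in the Trem2+/+ library (-0.72, -1.06 to -0.38), and 16.5% and 23.5% of cells were positive. Both clusters of the class shared the direction, with -0.80 in cluster 5 and -0.60 in cluster 16, and the sign held under every alternative run, between -0.83 and -0.43, although 3 of them left it short of 1.5-fold. Type 2 dendritic-like and macrophage-like cells stood at 0.49 (0.31 to 0.67) and 0.38 (0.25 to 0.50), not called. Over the alternatives the macrophage-like value ran from 0.21 to 1.43.

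The 25 other genes of NF-kB and mRNA-decay feedback were counted class by class. In CD4 T cell-like cells, where Nfkbia and Tnfaip3 had their highest ratios, 0 of 21 measured were called higher and 2 lower (median -0.16, all genes -0.05): Bcl3, a nuclear IkB protein (28.8 and 61.3 CPM, -1.09), and Tnip1, a partner of A20 (56.7 and 90.1 CPM, -0.67). The NF-kB subunit Rela was called higher there (72.9 and 38.3 CPM, 0.93). In macrophage-like cells 2 of 24 were called higher and none lower, Bcl3 (0.68) and Zfp36l1, which promotes decay of AU-rich mRNAs (0.66), and all 5 NF-kB subunit genes had ratios above 0 without a call (median 0.31, all genes 0.00). In neutrophil-like cells 1 of 22 was called, Tnip1 (104 and 156 CPM, -0.59). In Kupffer-like cells 3 of 21 were called higher, Irak3 (0.84), Itch (0.84) and Cyld (0.71), and 2 lower, Dusp2 (-1.01) and Tnip3 (-0.85). In unnamed cluster 20, 21 of 23 measured had ratios above 0, 3 were called higher and none lower (median 0.33, all genes 0.03). In low-depth macrophage-like cells 5 of 22 had ratios above 0, none was called higher and 5 lower (median -0.54, all genes -0.18). Of Toll-like receptor and IL-1 receptor genes 0 of 14 were called in macrophage-like and 0 of 13 in monocyte-like cells, and in neutrophil-like cells 1 of 11 was, Tlr6 (69.7 and 39.7 CPM, 0.81). Of 6 measured prostanoid genes in monocyte-like cells 1 was called, Hpgd, which inactivates prostaglandins (62.0 and 106 CPM, -0.77).

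In both libraries, monocyte-like, neutrophil-like and macrophage-like cells with a Tnf UMI held Nfkbia, Nfkbiz, Tnfaip3 and Ptgs2 more often than cells without one. Among monocyte-like cells thinned to 1000 UMIs, Il6 was seen in 13.7% (20 of 146, 8.57 to 20.4) of Trem2-/- cells with Tnf and 6.15% (3.56 to 9.80) of 260 without, and in 8.6% (5.0 to 13.6) of 186 Trem2+/+ cells with Tnf and 2.35% (1.02 to 4.57) of 341 without. Nfkbiz was seen in 66.4% and 36.9% of Trem2-/- monocyte-like cells with and without Tnf, and in 59.1% and 42.2% of Trem2+/+ ones. For Tnfaip3 the shares were 56.8% and 27.7% in the Trem2-/- library, against 51.1% and 32.0% in the Trem2+/+ library. Neutrophil-like cells showed the same pairing, with Nfkbiz in 78.3% of Trem2-/- cells with Tnf and 56.1% without, and in 67.8% of Trem2+/+ cells with Tnf and 54.3% without. In macrophage-like cells Nfkbia was seen in 77.3% and 52.4% of Trem2-/- and in 77.3% and 44.5% of Trem2+/+ cells. Il6 was too rare in neutrophil-like cells to judge pairing. It was seen in 0 of 161 Trem2-/- and 0 of 276 Trem2+/+ cells with Tnf, and in 5 of 353 and 1 of 361 without. Such shares describe these libraries only. They pool the clusters of a class, and the clusters of neutrophil-like cells differed in Tnf. The part of cluster make-up in the shares was not tested.

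Across 43 combinations of class and library, the genes most like each member in log2(CPM + 1) were the following, as a description, since points share libraries and cell types. Nfkbia followed Osm, another cytokine of the IL-6 family (Pearson r 0.91), and Ptgs2 followed Mcemp1 (0.94) and Il1b (0.91). Il12b followed Aldh1a2, the retinoic acid-forming enzyme (0.90), Tnf followed Lilrb4a (0.85), Nfkbiz followed Ifrd1 (0.86), Tnfaip3 followed Coq10b (0.81), Il6 followed Ms4a8a (0.82) and Il10 followed Itgav (0.66). Among the members themselves r was highest between Tnf and Nfkbiz (0.78), and Il12b had at most 0.36 with any other member.

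In low-depth macrophage-like cells, 89 in the Trem2-/- library, against 412 in the Trem2+/+ library, all 5 members that could be measured were called lower, against 8.05% of all genes. Tnf had 7 and 85 UMIs (67.5 and 232 CPM, -1.78) and Nfkbia 39 and 296 (376 and 807 CPM, -1.10). Nfkbiz, Tnfaip3 and Ptgs2 stood at -1.37, -1.54 and -1.61. The median over all genes of this class was -0.18, and dissociation stress genes moved the same way, 11 of 17 lower and none higher (median -1.08). The make-up of the class differed between the libraries: Gpnmb had 135 and 684 CPM, Fabp5 193 and 670 CPM and C1qa 2673 and 1559 CPM. The part of either in the result was not tested. The class appeared in 2 of the 8 ways of filtering and clustering the cells.

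In the remaining classes few members were called. In other T cell-like cells (4.25% of all genes called), natural killer or innate lymphoid-like cells (3.99%), B cell-like cells (4.29%), low-depth endothelial-like cells (4.86%), unnamed cluster 15 (4.91%) and cycling cells (7.05%), none of the measured members was. The cycling class joined unlike cells. After cycling genes, cluster 17 (53 Trem2-/- and 73 Trem2+/+ cells) best matched type 1 dendritic markers, and cluster 27 (40 and 85 cells) regulatory T cell markers. Cluster 17 had log2 ratios of -1.06 for Tnf, -0.94 for Nfkbiz and -1.02 for Tnfaip3, given as values without a call. Counted per class, Tnf had ratios above 0 in 10 of 15 classes, Nfkbia in 10, Tnfaip3 in 10 and Nfkbiz in 9. Of all genes at 20 CPM or more, 3646 of 5748 had ratios above 0 in CD8 T cell-like cells and 2497 of 5642 in CD4 T cell-like cells. The class counts were not compared with this background and do not show a lean of the members.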

How the data were processed

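Deposited values were whole UMI counts per gene and barcode. Per the file headers the authors made them with Cell Ranger 5.0.1, and the submitters' processing notes name mm10. The annotation release was not stated in those sources. Gene positions came from GENCODE M21, and upstream sequences from RefSeq.

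Barcodes were kept with 200 or more genes, 10% or less mitochondrial UMIs and no doublet call by Scrublet, which had not worked. Counts scaled to 10000 per cell were clustered with scanpy 1.11.5 (2000 variable genes without the 8 members and Trem or Treml genes, 30 components, 15 neighbours, Leiden resolution 1). Clusters were named from markers of 26 classes, with at least 3 markers in 20% of cells and a mean log2 fold of at least 0.5. Clusters of low depth, under 0.333 of their library's median UMIs, were set apart or left unnamed.

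UMIs were summed per class and library (CPM) with exact Poisson intervals. Ratios have exact conditional binomial intervals and shares exact binomial ones, all 95%. No test was made between the groups. Shares at equal depth use cells thinned to 1000 UMIs. The ratio and its interval were run on simulated counts drawn gene by gene from a Poisson model, which the interval itself assumes. That run could not show how the interval behaves where a few cells hold most UMIs of a gene. Alternatives covered filters, doublet scores, clustering, scaling (TMM from edgeR 4.0.16 on the summed counts) and thinning; the classes with at least 80 cells, the single clusters, the removal of 5 cells and the Cd4 and Cd8 split were added after the data were seen. Genes of 9 lists at a mean of 20 CPM or more were counted. Named were the members, up to 3 called list genes with the largest ratios per class and at least 50 UMIs, and other list genes as values. The members and lists were chosen with earlier results of these data known.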

Additional observations from a re-analysis of the deposited data

Results flagged for a closer look

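Ptgs2 was called in opposite directions in different classes, and the difference between classes was not tested. Its log2 ratio was 0.90 in macrophage-like cells and 0.98 in unnamed cluster 20, but -2.09 in CD4 T cell-like, -1.68 in Kupffer-like, -1.13 in type 1 dendritic-like and -2.80 in endothelial-like cells. The negative values rest on 21 to 62 UMIs over both libraries. The Kupffer-like value turned to between 0.16 and 0.76 under 4 alternatives, and the endothelial-like one to 0.53 without the highest doublet scores. In the smaller class of low-depth macrophage-like cells Ptgs2 was also called lower (48.25 CPM in Trem2-/- and 147.16 CPM in Trem2+/+ cells).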

How the results depend on the processing

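No paired analysis was possible because each group is 1 library. All values are log2 ratios, Trem2-/- over Trem2+/+, and the cause of each change was not tested. At Leiden resolution 0.5, Il12b in mature dendritic-like cells was 1.22, Il6 in monocyte-like cells 1.28 and Ptgs2 in Kupffer-like cells 0.34. With the stricter cell filter, Tnf was 0.067 in Kupffer-like and 0.15 in monocyte-like cells. With all deposited barcodes, Tnf was 0.04 in Kupffer-like and -0.16 in monocyte-like cells and Ptgs2 0.16 in Kupffer-like cells. Without the highest doublet scores, Il10 in CD8 T cell-like cells was 0.58 and no longer called, Tnf 0.72 in Kupffer-like and 0.084 in monocyte-like cells, Ptgs2 0.76 in Kupffer-like and 0.53 in endothelial-like cells, and Il6 -1.40 in neutrophil-like cells. Clustered without the listed genes, Il12b was 1.21 in mature dendritic-like cells, Tnf 0.18 in monocyte-like, Ptgs2 0.28 in Kupffer-like and Il6 -0.82 in neutrophil-like cells. With each library clustered alone, Il10 was 2.49 in CD8 T cell-like, Il12b -0.52 in mature dendritic-like, and Tnf 0.17 in Kupffer-like and -1.25 in monocyte-like cells. Without the 5 highest cells, Tnf was 0.15 in monocyte-like and -0.63 in neutrophil-like cells and -0.33 over all cells, and Il12b 0.66 in mature dendritic-like cells and 0.88 over all.

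Over all kept cells, TMM scaling gave -0.38 for Tnf, -0.20 for Nfkbia, -0.17 for Nfkbiz, 0.16 for Tnfaip3 and -0.23 for Ptgs2, and median-of-ratios scaling -0.34, -0.16, -0.13, 0.19 and -0.20. Classes at their mean share gave -0.051 for Tnf, 0.95 for Il6, 1.07 for Il10, 0.94 for Il12b, 0.042 for Nfkbia, 0.076 for Nfkbiz, 0.16 for Tnfaip3 and 0.008 for Ptgs2. Means over cells gave -0.16 for Nfkbia, 0.42 for Tnfaip3 and -0.34 for Ptgs2, and 1.21 for Il12b in mature dendritic-like cells. Depth limits Il6, Il10 and Il12b outside their main classes, where ratios rest on few UMIs.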
